A study of Mus musculus with 6 samples.

Results

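The cyclins, cyclin-dependent kinases (CDKs), CDK inhibitors and E2F transcription factors were examined in lung tumours that the carcinogen urethane had induced in mice, against control lung. Members were taken by gene symbol: the A, B, D and E type cyclins, the numbered Cdk genes, the Cdkn1 and Cdkn2 inhibitor genes, and E2f1 to E2f8. The rule found 44 of the 33924 gene names in the count table, namely 10 cyclins, 19 kinases, 7 inhibitors and 8 E2F factors. A filter on low counts left 41 of them for the test.

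Cyclins bind and activate CDKs, and the pairs drive a cell from one phase of its cycle to the next. D-type cyclins with CDK4 or CDK6 begin the phosphorylation of the retinoblastoma protein in G1, cyclin E with CDK2 continues it, and the E2F factors so released switch on genes of DNA replication. Cyclin A with CDK2 or CDK1, and cyclin B with CDK1, act through S phase and mitosis. The INK4 inhibitors block CDK4 and CDK6, whereas the CIP/KIP inhibitors bind a wider range of cyclin-CDK complexes. Most cells of the adult lung are out of cycle.

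RNA was sequenced in bulk from 6 libraries of FVB/NJ mice, an inbred strain. Controls (replicates 1, 2 and 3) came from normal lung of mice given saline. Tumour libraries (replicates 1, 2 and 4) are labelled as urethane-induced lung tumour, from mice given 1 g of urethane per kg by intraperitoneal injection, and tissue of both groups was taken at 6 months. The labels do not say how tumour was separated from lung, nor that each library is a different animal, so p-values reflect only how far these libraries vary, and that variation may be technical in part.

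The libraries held 38996532 to 62336537 counted reads, and counts of any pair within a group varied beyond sampling noise (chi-square of at least 63.2 per degree of freedom), so each was counted as 1 sample. Levels are given in CPM, reads scaled to a common library size. Tumour 2 stood apart in sex-linked genes, with 3360 CPM of Xist and 0.215 CPM of the Y-linked Kdm5d. In the other 5 libraries Xist reached 32.9 CPM at the highest, and Kdm5d was never under 37.6 CPM. All 6 markers of AT2 cells, the alveolar cells that make surfactant, were higher in tumours, with a summed level of 9510 to 15800 CPM in controls and 26800 to 61300 CPM in tumours. In bulk tissue, fewer cells of a type and less RNA per cell cannot be told apart.

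Of the 41 members tested, 11 were higher and 11 lower in tumours and 19 did not pass (edgeR quasi-likelihood F test, with p-values adjusted over all 20001 genes tested by Benjamini-Hochberg and a threshold of 0.05, n = 3 per group). That is 53.7% of the members, where 42.0% of all genes tested passed, 18.1% higher and 23.8% lower. The level in CPM did not overlap between the groups for 23 of the 41, against 56.0% of all genes. Their median log2 fold change was 0.06, and 0.01 over all genes. By class, 4 cyclins rose and 2 fell of 8, 4 kinases rose and 5 fell of 18, 2 inhibitors rose and 4 fell of 7, and 1 of 8 E2F factors rose. Without tumour 2, 18 members passed, 11 higher and 7 lower. Leaving out tumour 4 also left 7 lower, leaving out control 2 left 5 lower, and without tumour 1 22 passed.

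**Figure D1:**
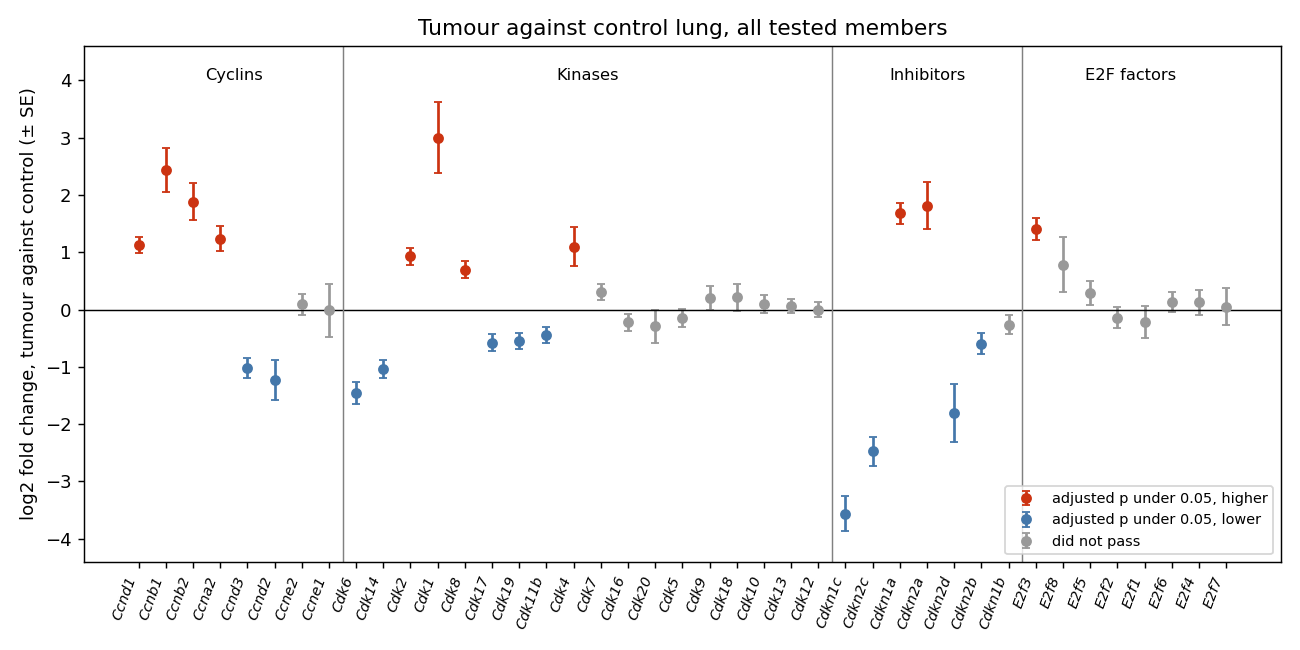
Fitted log2 fold change of tumour against control lung for the 41 tested members, by class, with bars of 1 SE. Red points passed the test as higher, blue points as lower, and grey points did not pass; the range runs from -3.56 for Cdkn1c to 3.0 for Cdk1.

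The D-type cyclins moved in opposite directions. Ccnd1, which encodes cyclin D1, the G1 cyclin that growth factor signals induce, lies at chr7:152115836-152125774 in mm9. Its level was 95.5, 109 and 103 CPM in controls 1, 2 and 3 and 212, 244 and 215 CPM in tumours 1, 2 and 4. Every tumour was above every control and the 3 tumours lay close together. The log2 fold change was 1.12 ± 0.14 (SE) with an edgeR adjusted p = 0.000449.

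Ccnd2 (chr6:127075797-127101066, mm9) encodes cyclin D2. It was at 105, 104 and 109 CPM in controls and 21, 65 and 50.4 CPM in tumours, so it was lower in all tumours and lowest in tumour 1. Its log2 fold change was -1.22 ± 0.35 (edgeR adjusted p = 0.0238), and the adjusted p was 0.0585, 0.0645 and 0.0840 when control 1, 2 or 3 was left out. Ccnd3 (chr17:47642000-47736632, mm9), the gene of cyclin D3, was at 37.2, 41.0 and 42.4 CPM in controls and 17.4, 24.5 and 17.5 CPM in tumours. The groups did not overlap, and the log2 fold change was -1.02 ± 0.18 (edgeR adjusted p = 0.00237).

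Set per exon length (RPKM), the summed level of the 3 D-type cyclins was 59.8 to 64.9 in controls and 66.6 to 85.9 in tumours. Ccnd1 made up 41.5% to 43.8% of that sum in controls and 74.1% to 82.9% in tumours. Ccnd2 made up 28.2% to 30.8% in controls and 5.54% to 13.3% in tumours. In controls the 3 genes held fairly even shares, while in each tumour Ccnd1 was the main D-type cyclin transcript. Reads on shared exon bases were counted for both genes there: 21.3% of the exon bases of Ccnd1 lie in exons of Oraov1, and 15.7% of those of Ccnd3 in exons of Bysl. Oraov1 was at 33.9 to 44.5 CPM in controls and 55.8 to 68.7 CPM in tumours. Bysl was at 21.5 to 24.4 CPM in controls and 14.4 to 18.7 CPM in tumours. The part of shared reads in these results was not tested.

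Their kinase partners also diverged. Cdk4 (chr10:126500590-126504976, mm9) was at 51.6, 61.3 and 55.1 CPM in controls and 197, 83.1 and 79.4 CPM in tumours. All tumours were above all controls, and tumour 1 was 2.43 times the mean of the other two. The log2 fold change was 1.10 ± 0.34 (edgeR adjusted p = 0.0321). Without tumour 1 it was 0.57 (adjusted p = 0.00667), and leaving out control 1, 2 or 3 gave adjusted p of 0.0979, 0.0768 and 0.102. Exons of Tspan31 hold 18.6% of the exon bases of Cdk4. Tspan31 was at 30.8 to 36.1 CPM in controls, 54.0 CPM in tumour 1 and 44.5 to 48.2 CPM in the other tumours. It was itself higher in tumours, with a log2 fold change of 0.53 (edgeR adjusted p = 0.0178). The part of shared reads in the result for Cdk4 was not tested.

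Cdk6 (chr5:3343893-3523218, mm9), the other D-type cyclin kinase, went the opposite way. It was at 23.1, 19.5 and 27.1 CPM in controls and 8.94, 8.94 and 7.38 CPM in tumours, with no overlap and little spread among the tumours. Its log2 fold change was -1.46 ± 0.19 (edgeR adjusted p = 0.000491). By length-scaled level, Cdk4 held 70% to 78.3% of the Cdk4 and Cdk6 sum in controls and 91.4% to 96.2% in tumours. These shares rest on deposited exon lengths of 3249 bases for Cdk4 and 3735 for Cdk6. The longest GENCODE M21 transcripts have 2053 and 11525 bases.

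**Figure D2:**
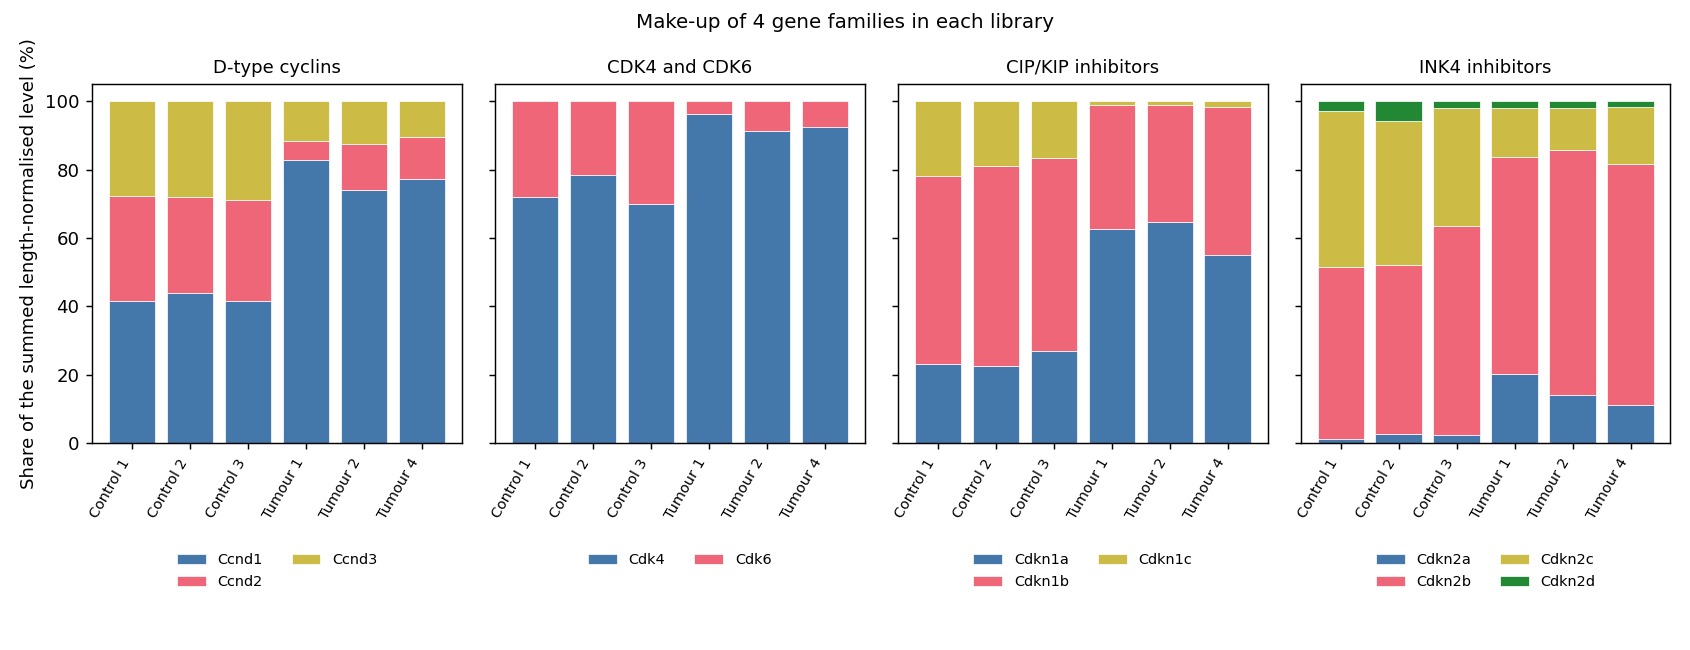
Stacked bars of the share (%) that each gene takes of the summed length-normalised level (RPKM) of its family, in each of the 6 libraries, for the D-type cyclins, CDK4 and CDK6, the CIP/KIP inhibitors and the INK4 inhibitors. Ccnd1, Cdk4, Cdkn1a, Cdkn2a and Cdkn2b take a larger share in each tumour than in any control. Ccnd2, Ccnd3, Cdk6, Cdkn1b, Cdkn1c and Cdkn2c take a smaller one. A share can grow while the level falls, as for Cdkn2b.

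At the next step of the cycle the kinase rose without its E-type cyclins passing the test. Cdk2 (chr10:128134995-128142107, mm9), which pairs with cyclins E and A, was at 14.4, 14.8 and 14.6 CPM in controls and 31.7, 25.1 and 26.3 CPM in tumours. The controls were nearly equal and each tumour was higher, a log2 fold change of 0.93 ± 0.16 (edgeR adjusted p = 0.0019). Ccne1 (chr7:38883003-38892553, mm9), the gene of cyclin E1, was at 2.01, 2.34 and 1.32 CPM in controls and 3.14, 1.44 and 1.02 CPM in tumours. Tumour 1 was the highest library and tumour 4 the lowest, so the groups overlapped. Its log2 fold change was -0.02 with a 95% interval of -1.08 to 1.05 (edgeR adjusted p = 0.982), which does not show that the level was alike. Ccne2 (chr4:11118498-11131926, mm9) was at 15, 12 and 11.5 CPM in controls and 12, 14.1 and 14.7 CPM in tumours, again overlapping. Its log2 fold change was 0.09, with a 95% interval of -0.33 to 0.51 (edgeR adjusted p = 0.726). Exons of Ints8 hold 17.4% of its exon bases.

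The cyclins and the kinase of S phase and mitosis were higher in every tumour than in any control, and tumour 1 held the most of each. Cdk1 (chr10:68799383-68815686, mm9), the mitotic kinase, was at 2.25, 2.51 and 1.503 CPM in controls and 34.2, 6.61 and 9.39 CPM in tumours. Tumour 1 was 4.27 times the mean of the other two. The log2 fold change was 3.0 ± 0.62 (edgeR adjusted p = 0.0052), and 1.97 without tumour 1 (adjusted p = 0.000664).

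Ccnb1 (chr13:101548605-101556525, mm9), the gene of cyclin B1, the partner of CDK1, was at 1.85, 1.79 and 1.40 CPM in controls and 14.5, 6.04 and 6.79 CPM in tumours. Tumour 1 was again apart, at 2.26 times the other two, and the log2 fold change was 2.44 ± 0.38 (edgeR adjusted p = 0.00134). Of the 32-base words of its longest transcript, 46.7% also occur in transcripts of other gene names, which could take or lend reads. Ccnb1-ps, Gm12856 and Gm8416 shared the most. Gm12856 had no read in any library, and levels of Ccnb1-ps and Gm8416 are not given. Counting used no multi-mapping option, so the lack of reads at Gm12856 does not show whether Ccnb1 lost any. Ccnb2 (chr9:70255496-70269361, mm9), the gene of cyclin B2, was at 1.77, 1.40 and 1.18 CPM in controls and 7.31, 4.08 and 4.62 CPM in tumours. The groups did not overlap, and the log2 fold change was 1.89 ± 0.33 (edgeR adjusted p = 0.00228).

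Ccna2 (chr3:36463788-36471072, mm9) encodes cyclin A2, which serves both S phase and mitosis. It was at 8.78, 8.97 and 6.15 CPM in controls and 21.8, 16.2 and 18.3 CPM in tumours. Here the tumours lay closer together, and the log2 fold change was 1.24 ± 0.22 (edgeR adjusted p = 0.00233). Exons of Exosc9 hold 14.6% of its exon bases, and Exosc9 was at 15.3 to 19.3 CPM in controls and 21.2 to 23.3 CPM in tumours. The length-scaled sum of Cdk1, Ccnb1, Ccnb2 and Ccna2 was 3.29 to 4.74 RPKM in controls and 24.3, 10.6 and 12.5 RPKM in tumours 1, 2 and 4. Cdk1 made up 13.3% to 15.8% of that sum in controls, 18.1% in tumour 2, 21.7% in tumour 4 and 40.8% in tumour 1.

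The remaining cyclins of the rule fell under the filter on low counts. Ccna1, a cyclin A known from the male germ line, had 36 reads over the controls and 0 over the tumours, at least 12.9-fold lower against a floor of 3 reads over the group. Fits that tested it called it lower, with an adjusted p = 0.0067 by edgeR with no filter and 0.00129 by DESeq2. Ccnb3 had 2 reads in each group and no fold is given.

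**Figure D3:**
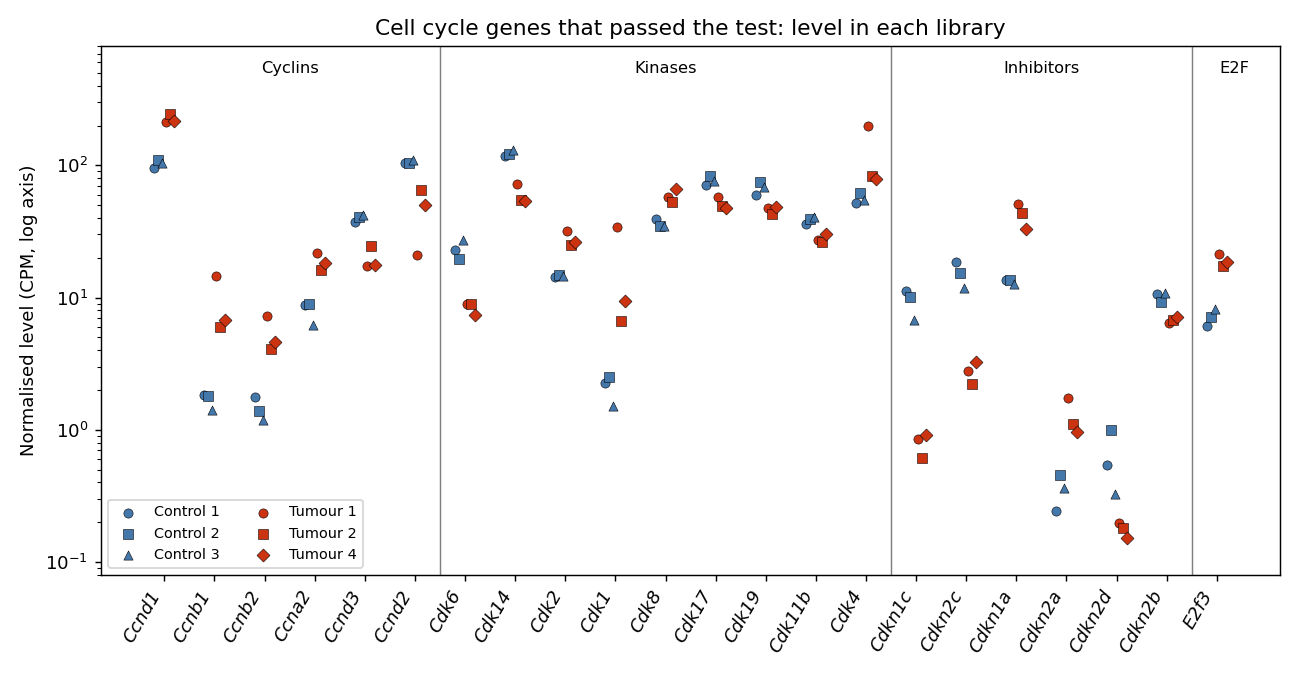
Normalised level (CPM, log axis) of the 22 members that passed the test, in each library, by class; blue symbols are controls 1, 2 and 3 and red symbols tumours 1, 2 and 4. The groups do not overlap for any of the 22, and tumour 1 stands apart from the other tumours for Cdk1 (34.2 CPM), Cdk4 (197 CPM), Ccnb1 (14.5 CPM) and Ccnd2 (21 CPM).

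Promoters of mitotic members and of E2f3 are shown because these genes all passed as higher in tumours. Sites for shared regulators are also known in such promoters. Among the tumours the genes differed. The ratio of tumour 1 to the mean of tumours 2 and 4 was 1.19 for E2f3, 1.68 for Ccnb2, 2.26 for Ccnb1 and 4.27 for Cdk1. Whether they share a regulator here was not tested. Ccna2 had no promoter entry and is not shown. The 250 bases before the transcription start of Cdk1 (chr10:69352913-69353162), Ccnb1 (chr13:100786487-100786736), Ccnb2 (chr9:70421555-70421804) and E2f3 (chr13:29986064-29986313, the more upstream of its 2 entries) come from RefSeq on GRCm38.p6. All 4 genes lie on the minus strand and are printed 5′ to 3′ along the gene. Capitals mark 3 kinds of motif searched on both strands: the CCAAT box (CCAAT, or ATTGG on the opposite strand), the cell cycle homology region (TTTGAA), and an E2F site (TTTGGCGC, TTTCCCGC, TTTGCCGC or TTTCGCGC).
Cdk1 promoter: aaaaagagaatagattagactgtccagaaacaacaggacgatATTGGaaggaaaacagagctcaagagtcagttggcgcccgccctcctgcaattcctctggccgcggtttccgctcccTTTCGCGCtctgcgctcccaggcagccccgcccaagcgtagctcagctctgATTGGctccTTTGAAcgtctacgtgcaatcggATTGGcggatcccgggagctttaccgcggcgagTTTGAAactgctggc
Ccnb1 promoter: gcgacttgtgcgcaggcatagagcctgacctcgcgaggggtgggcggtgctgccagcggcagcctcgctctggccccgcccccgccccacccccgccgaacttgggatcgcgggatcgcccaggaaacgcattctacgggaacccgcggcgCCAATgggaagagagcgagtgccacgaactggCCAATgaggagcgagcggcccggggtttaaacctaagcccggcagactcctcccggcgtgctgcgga
Ccnb2 promoter: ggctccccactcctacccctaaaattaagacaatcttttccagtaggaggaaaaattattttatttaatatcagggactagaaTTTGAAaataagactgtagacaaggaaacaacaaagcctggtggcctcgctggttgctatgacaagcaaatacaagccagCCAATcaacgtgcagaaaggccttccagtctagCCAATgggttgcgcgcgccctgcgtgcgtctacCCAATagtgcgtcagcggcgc
E2f3 promoter: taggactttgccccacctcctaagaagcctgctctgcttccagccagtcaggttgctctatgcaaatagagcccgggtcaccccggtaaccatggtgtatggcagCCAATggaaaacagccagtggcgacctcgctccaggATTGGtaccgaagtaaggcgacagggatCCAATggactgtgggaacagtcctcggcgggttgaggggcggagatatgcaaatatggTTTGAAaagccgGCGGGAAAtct
The Cdk1 window held all 3 kinds, with CCAAT boxes starting 208, 80 and 48 bases before the start, TTTGAA at 71 and 15 bases and an E2F site at 131 bases. The Ccnb1 window held CCAAT boxes at 99 and 67 bases, and the Ccnb2 window at 87, 54 and 21 bases. No TTTGAA was found in the Ccnb1 window, but this was the only form of the cell cycle homology region searched. Ccnb2 also had TTTGAA at 167 bases before the start and another 5 bases past it, outside the stretch printed.

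Over the full 300-base entries, an E2F site of these forms occurred in 2.26% of 32851 entries, TTTGAA in 17.9% and a CCAAT box in 37.4%. Entries were available for 34 of the 44 members, 41 in all. They covered 9 of the 11 members that rose and 7 of the 11 that fell. Of the 12 entries of members that rose, 4 held the E2F site, 3 TTTGAA and 6 a CCAAT box. Of the 9 entries of members that fell, 0, 1 and 3 did. Of the 17 entries of members that did not pass, 2, 3 and 9 did. No matches of different motifs overlapped in these entries. A match describes letters in a window and does not show that a factor was bound.

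Kinases with main roles outside the cell cycle engine passed in both directions. Cdk14 (chr5:4803391-5420312, mm9), a kinase that works with cyclin Y at the plasma membrane, was at 119, 122 and 132 CPM in controls and 71.6, 55.0 and 54.1 CPM in tumours. All tumours were lower, a log2 fold change of -1.04 ± 0.16 (edgeR adjusted p = 0.00112). Cdk8 (chr5:147042806-147114450, mm9), a kinase of the Mediator complex of transcription, was at 39.5, 34.7 and 35.1 CPM in controls and 58.1, 53.3 and 66.0 CPM in tumours. All tumours were higher, a log2 fold change of 0.70 ± 0.14 (edgeR adjusted p = 0.00526).

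The 3 other kinases that passed were lower, and they are named after their values were seen. They were Cdk17 at -0.58, Cdk19, the Mediator paralogue of Cdk8, at -0.55, and Cdk11b, a kinase of transcription and splicing, at -0.45 on the log2 scale (edgeR adjusted p = 0.0121, 0.0156 and 0.0302). Cdk8 and Cdk19 thus passed in opposite directions. Each of these 3 calls was lost in at least 2 of the 6 fits that left out a library. Exons of Elk3 hold 5.8% of the exon bases of Cdk17. Elk3 was at 63.5 to 77.9 CPM in controls and 30.1 to 35.7 CPM in tumours. The part of shared reads in the result for Cdk17 was not tested. The 9 kinases that did not pass (Cdk5, Cdk7, Cdk9, Cdk10, Cdk12, Cdk13, Cdk16, Cdk18 and Cdk20) had log2 fold changes of -0.29 to 0.30, and only for Cdk7 did the groups not overlap. Cdk15 fell under the filter, with 24 reads over the controls and 3 over the tumours, 8.58-fold lower with a 95% counting interval of 2.61 to 44.5, and did not pass in the fits that tested it (adjusted p = 0.165 by edgeR with no filter, 0.271 by DESeq2).

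Among the CIP/KIP inhibitors the members split. Cdkn1a (chr17:29227924-29237667, mm9), which encodes p21, a target of p53 and an inhibitor of CDK2 complexes, was at 13.6, 13.7 and 12.7 CPM in controls and 50.9, 43.9 and 33.2 CPM in tumours. Each tumour was well above the controls, and the log2 fold change was 1.68 ± 0.19 (edgeR adjusted p = 0.000231). Cdkn1c (chr7:150644255-150646955, mm9), the imprinted gene of p57, was at 11.1, 10.1 and 6.80 CPM in controls and 0.850, 0.611 and 0.911 CPM in tumours. This was the largest fall among the 41 members, a log2 fold change of -3.56 ± 0.31 (edgeR adjusted p = 7.48e-05). Of its 32-base words, 28.3% also occur in Gm44732.

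Cdkn1b (chr6:134870419-134875531, mm9), the gene of p27, which is controlled to a large extent by protein breakdown, was at 66.0, 72.7 and 54.7 CPM in controls and 60.02, 47.9 and 53.3 CPM in tumours. The groups overlapped, and the log2 fold change was -0.26 with a 95% interval of -0.63 to 0.11 (edgeR adjusted p = 0.231). The length-scaled sum of the 3 genes was 21.3 to 27.3 RPKM in controls and 27.1 to 36.5 RPKM in tumours. Cdkn1b took the largest share in controls (54.9% to 58.4%) and Cdkn1a the largest in tumours (55.1% to 64.6%), while Cdkn1c went from 16.6% to 21.9% in controls to 1.03% to 1.74% in tumours.

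Of the INK4 inhibitors 1 rose and 3 fell. Cdkn2a (chr4:88920377-88940557, mm9) encodes p16 and, from another first exon, p19ARF, which stabilises p53. It was at 0.244, 0.456 and 0.365 CPM in controls and 1.73, 1.11 and 0.955 CPM in tumours. All tumours were higher though the level stayed low, and the log2 fold change was 1.81 ± 0.41 (edgeR adjusted p = 0.00829). The counts are per gene name, so transcripts of p16 and p19ARF cannot be told apart. Cdkn2b (chr4:88952198-88956941, mm9), its neighbour and the gene of p15, was at 10.6, 9.24 and 10.9 CPM in controls and 6.39, 6.75 and 7.09 CPM in tumours. The groups did not overlap and the log2 fold change was -0.60 ± 0.18 (edgeR adjusted p = 0.0313), a call that was lost in 5 of the 6 fits without a library.

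Cdkn2c (chr4:109333481-109339794, mm9), the gene of p18, was at 18.5, 15.4 and 11.9 CPM in controls and 2.78, 2.23 and 3.23 CPM in tumours. The groups were far apart, with a log2 fold change of -2.47 ± 0.25 (edgeR adjusted p = 0.000158). Cdkn2d (chr9:21092907-21095653, mm9), the gene of p19INK4d, was at 0.543, 0.988 and 0.325 CPM in controls and 0.196, 0.180 and 0.152 CPM in tumours. The tumours were lower, near the level of a few reads, with a log2 fold change of -1.81 ± 0.51 (edgeR adjusted p = 0.022). Its adjusted p was 0.109, 0.0520 and 0.0667 without control 2, tumour 2 and tumour 4. The length-scaled sum of the 4 INK4 genes was 12.8 to 15.1 RPKM in controls and 6.77 to 7.26 RPKM in tumours. Within it Cdkn2c held 34.5% to 45.6% in controls and 12.2% to 16.6% in tumours, and Cdkn2a 1.38% to 2.88% and 11.3% to 20.4%. Cdkn2b held the largest share in every library, 49.1% to 61% in controls and 63.2% to 71.6% in tumours, although its level fell.

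One E2F factor passed. E2f3 (chr13:29998444-30077537, mm9), an activating E2F, was at 6.11, 7.19 and 8.26 CPM in controls and 21.3, 17.3 and 18.4 CPM in tumours. Every tumour was above every control, and the log2 fold change was 1.40 ± 0.19 (edgeR adjusted p = 0.000625). Its printed promoter window held CCAAT boxes, TTTGAA and an E2F site, whereas the 250 bases before its other start (chr13:29984392-29984641) held none of these letters. The other 7 (E2f1, E2f2, E2f4, E2f5, E2f6, E2f7 and E2f8) did not pass, with log2 fold changes of -0.22 to 0.78. The largest of these was E2f8, a repressor, named after its values were seen. It was at 1.603, 1.57 and 1.18 CPM in controls and 4.40, 1.76 and 1.28 CPM in tumours, with tumour 1 far above the other libraries and tumour 4 within the range of the controls (edgeR adjusted p = 0.231). Without tumour 1 its log2 fold change was 0.10 and that of E2f5 was larger, at 0.42. E2f3 made up 4.88% to 6.23% of the length-scaled E2F sum in controls and 11.8% to 12.8% in tumours.

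The tumour libraries differed among themselves in these genes. Of the 41 tested members, 22 had their highest tumour level in tumour 1, 7 in tumour 2 and 12 in tumour 4, and 41.6% of all genes tested were highest in tumour 1. The ratio of tumour 1 to the mean of the other two was 4.27 for Cdk1, 2.89 for E2f8, 2.56 for Ccne1, 2.43 for Cdk4 and 2.26 for Ccnb1. It was 0.92 for Ccnd1, 0.36 for Ccnd2 and 1.10 for Cdk6. Mki67, a marker of cycling cells, was at 37.9, 37.1 and 26.2 CPM in controls and 187, 80.9 and 77.7 CPM in tumours 1, 2 and 4. Tumour 1 was the highest, as for the mitotic members. Its part in these results was not tested.

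**Figure D4:**
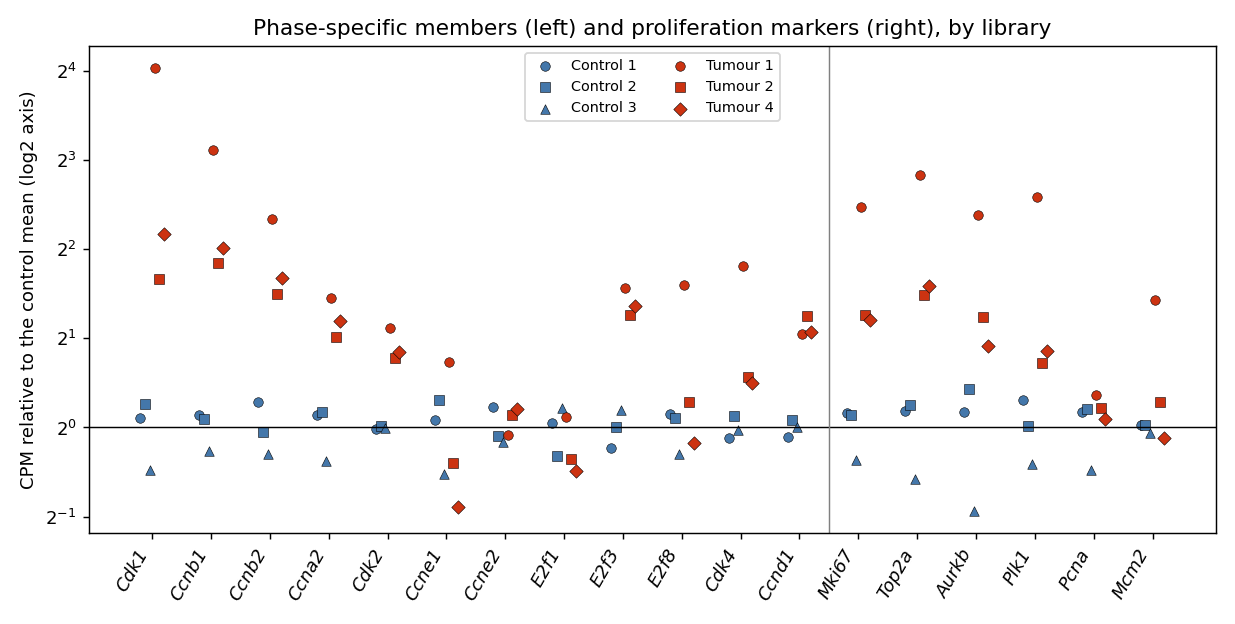
Level in each library relative to the control mean (log2 axis) for 12 members and, right of the line, 6 proliferation markers; blue symbols are controls and red symbols tumours. Tumour 1 is the highest library for Cdk1, Ccnb1, Ccnb2, Ccna2, Ccne1, E2f8, Cdk4 and Mki67, but not for Ccnd1 or Ccne2.

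Other genes of the pathway were counted from lists chosen with earlier results of these data known. Beside these counts, 18.1% of all genes tested were higher and 23.8% lower. Of 9 genes for CDK phosphorylation and CKS subunits, 6 rose and 0 fell, with a median log2 fold change of 1.25 against 0.01 for all genes. They included Cdc25b, a phosphatase that activates CDKs, at 1.25 (edgeR adjusted p = 0.000316), and Cks1b, a small CDK-binding subunit, at 2.44 (adjusted p = 0.000784). Of 6 proliferation markers, 4 rose, with Top2a, a topoisomerase of dividing cells, at 2.11 and Mki67 at 1.77 (adjusted p = 0.00343 and 0.0046). Of 15 cyclins outside the rule, 6 rose and 0 fell, with Ccnjl at 3.26 and Ccnt2, a partner of CDK9 in transcription, at 1.11 (adjusted p = 0.000826 and 0.000906).

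Of 10 ubiquitin ligase genes that act on cyclins and inhibitors, 3 rose and 2 fell. Cdc20, an activator of the anaphase-promoting complex, was at 2.01 and Ube2c, its ubiquitin-conjugating enzyme, at 2.46 on the log2 scale (edgeR adjusted p = 0.00219 and 0.00454). The others, named after their values were seen, were Cul1, which rose, and Fbxw7 and Btrc, which fell. Of 5 pocket proteins and E2F partners, Rb1, the retinoblastoma gene, fell by 1.32 and Tfdp1, a dimer partner of E2F, rose by 0.92 (edgeR adjusted p = 0.00133 and 0.00452). Rb1 was at 98.0 to 106 CPM in controls and 29.3, 50.6 and 43.5 CPM in tumours, lowest in tumour 1. Tfdp2 also fell, named after its value was seen. Of 7 genes of the MuvB complex with B-Myb and FoxM1, which act on mitotic promoters, 1 rose and 2 fell, with a median log2 fold change of 0.47. Lin52 and Lin54 fell by 0.80 and 0.50 (edgeR adjusted p = 0.00698 and 0.032), and Rbbp4, named after its value was seen, rose. The rest did not pass, with log2 fold changes of 0.27 to 1.71.

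Markers of other cell types moved with the groups. All 6 endothelial markers were lower in tumours (summed level 1420 to 2050 CPM in controls, 145 to 220 CPM in tumours), as were all 6 T and NK cell markers (37.3 to 61.1 and 3.07 to 10.1 CPM) and all 6 of smooth muscle and pericytes (254 to 487 and 78.8 to 109 CPM). So were all 5 club cell markers (10400 to 17100 and 30.8 to 52.1 CPM), all 6 ciliated cell markers (155 to 236 and 1.84 to 3.45 CPM), all 4 mesothelial markers (65.1 to 76.5 and 0.803 to 3.02 CPM) and all 5 neutrophil markers (244 to 443 and 3.74 to 24.1 CPM). Of fibroblast markers 5 of 6 fell (654 to 792 and 116 to 231 CPM), of B and plasma cell markers 5 of 6 (202 to 310 and 27.5 to 267 CPM), and of macrophage and monocyte markers 2 of 6 (283 to 464 and 115 to 365 CPM). Of AT1 cell markers 4 fell and 1 rose of 6 (1810 to 2240 and 576 to 811 CPM).

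All 4 cardiac muscle markers fell (81.8 to 534 and 7.91 to 30.2 CPM). Of 3 tested erythroid markers 2 fell (21 to 460 and 16.2 to 28.2 CPM). Every marker of the lists given here had reads in tumours. Ccnd2, Ccnd3, Cdk6, Cdk14, Cdk17, Cdk19, Cdk11b, Cdkn1c, Cdkn2b, Cdkn2c and Cdkn2d fell in the same libraries as these markers. The part of cell composition in those falls was not tested. Between the groups, Mki67 and AT2 markers moved the same way as the members that rose, and their part was not tested either. Among the tumours they differed. The ratio of tumour 1 to the mean of tumours 2 and 4 was 2.36 for Mki67 and 0.361 to 0.964 for the 6 AT2 markers.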

How the data were processed

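Reads per gene name were deposited as raw counts, 1 column per library, with exon bases per name. Counting used featureCounts 1.6.5 on exons by gene name (GENCODE vM1, mm9), per the file headers, giving a read to every name it overlapped, with no strand, pair or multi-mapping option. STAR, R 3.6.0, limma, edgeR and the builds GRCm38 and mm9 appear in the submitters' processing notes, without a version of the aligner.

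Counts were tested with edgeR 4.0.16 in R 4.3.3 (filterByExpr with a minimum count of 10, TMM scaling, quasi-likelihood F test, group as the only term), with Benjamini-Hochberg adjustment over 20001 genes and a threshold of 0.05. SEs come from the F statistic. CPM are TMM-scaled, and RPKM divides them by deposited exon length. With no read in a group, folds are bounds against 3 reads over that group; counting intervals are exact (95%) and cover counting error only, 3 reads being 0.0456 to 0.0815 CPM in a library. The fit was tested on simulated data. Alternatives were DESeq2 1.42.0, limma-voom (limma 3.58.1), other scalings, filters and thresholds, each library left out, and a replicate block.

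Every member is accounted for. Per-library values are given for members that passed with no overlap, up to the 5 smallest p of a class, all tested A, B, D and E type cyclins, all inhibitors, and Cdk1, Cdk2, Cdk4 and Cdk6; of each pathway list, the 2 genes with the smallest p and Mki67 may be named. Members and lists were chosen with earlier results of these data known. One marker list is not reported here. Shared 32-base words are from GENCODE M21 transcripts, and exon overlap is from the deposited coordinates.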

Additional observations from a re-analysis of the deposited data

How the results depend on the processing

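Of the 22 members that passed, 15 passed in every fit that left out a library, and none changed direction under any alternative run. Scaling by DESeq2-type size factors or upper quartiles, DESeq2 and limma-voom kept all 22; a minimum count of 50 left 20 of them, since Cdkn2a and Cdkn2d were then not tested. Against a 2-fold threshold 5 members were higher and 3 lower (1056 and 2909 of all genes). Leaving out each library gave 5 to 11 members lower (lowest without control 2), and the counts without control 2, tumour 2 and tumour 4 were over 1.5 times smaller than the main count. With library totals only, the median log2 fold change of all genes moved from 0.01 to -0.10 and the adjusted p of Cdk4 to 0.0587; with no filter on low counts, that of Cdk11b and Cdkn2b was 0.0527. Members that had not passed changed sign under some alternatives: Ccne1 (0.00579 by upper quartile), Cdk12 (0.017 by upper quartile, 0.0038 with no filter), and with library totals only Ccne2 (-0.0209), Cdk10 (-0.0222), Cdk13 (-0.0532) and E2f7 (-0.0592). Leaving out a library also turned Ccne1 (-0.59 to 0.28), Cdk12 (-0.031 to 0.0616), Cdk9 (-0.00809 to 0.34), E2f4 (-0.0287 to 0.30) and E2f7 (-0.14 to 0.22). The cause of these changes was not tested. Replicate numbers 1 and 2 occur in both groups, but the labels do not pair the libraries, and deviations of same-numbered libraries had correlations of -0.18 and -0.01. A replicate block, which leaves 1 residual degree of freedom, gave 4 members higher and 3 lower (1092 and 2549 of all genes) and turned Ccne2 (-0.0394), E2f1 (0.0159) and E2f7 (-0.12). Depth limits Ccna1, Ccnb3 and Cdk15, which were under the filter. Of these, DESeq2 and the fit with no filter called Ccna1 lower (adjusted p = 0.00129 and 0.0067), and no fit that tested Ccnb3 or Cdk15 called it. Depth also limits Cdkn2a and Cdkn2d, which were near or under 1 CPM in most libraries.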

Other observations

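Tumour 1, the library with the highest level of Cdk1, Ccnb1, Ccnb2 and Ccna2, also differed from tumours 2 and 4 by chromosome. Over genes with a mean of at least 2 CPM, the median log2 ratio of tumour 1 to the mean of the other two was highest among the autosomes on chromosome 17 (0.37, 727 genes), followed by 7 (0.32, 1071 genes), 15 (0.29, 545 genes), 2 (0.24, 1161 genes), 16 (0.23, 486 genes) and 10 (0.22, 683 genes). It was 0.13 on chromosomes 12 and 6. On the other 11 autosomes it lay between -0.08 and -0.20. All log2 ratios given here for tumour 1 had 0.5 CPM added to both sides of the ratio. Of the members, Cdk1, Cdk2, Cdk4, Cdk17, Cdk19 and E2f7 lie on chromosome 10. For Cdk17, Cdk19 and E2f7 the plain ratio of tumour 1 to the mean of tumours 2 and 4 was 1.185, 1.052 and 1.037. Members on chromosomes with higher medians varied too. On chromosome 17 the plain ratio was 1.32 for Cdkn1a and 0.83 for Ccnd3. On chromosome 7 it was 0.92 for Ccnd1, 2.56 for Ccne1, 1.12 for Cdkn1c and 2.89 for E2f8. On chromosome 2 it was 1.53 for Cdk9 and 1.45 for E2f1. Within 1 Mb of Cdk4, 37 genes had a median of 0.22 and 24 of them were highest in tumour 1. Cdk4 itself was at 1.27, at the 97.6th percentile of 14548 genes. Within 1 Mb of Cdk1, 8 genes had a median of -0.06, while Cdk1 was at 2.03, at the 99.5th percentile. Within 1 Mb of Cdk2, 45 genes had a median of 0.16, and Cdk2 was at 0.30. These are values of 3 libraries with no test, and tumour 2 differs from the others in sex-linked genes.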
